A study of Mus musculus with 6 samples.

Results

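The proteasome subunit genes are described here in tumours that grew under the skin of mice from the colon carcinoma line CT26, after treatment of the host with an enzyme that breaks down glutamine. Members were the protein-coding genes of the deposited table whose symbols begin with Psma, Psmb, Psmc, Psmd or Psme followed by a number, which gave 43 of 40303 gene models. Of these, 5 are the immune subunits Psmb8, Psmb9, Psmb10, Psme1 and Psme2, and 38 are called constitutive below. The hosts were wild-type BALB/c mice, the strain from which CT26 came. 3 mice were injected into the peritoneum with PEG-glutaminase, the glutamine-splitting enzyme joined to polyethylene glycol, at 50 IU/kg, and 3 mice were injected with the vehicle of phosphate-buffered saline and 10% glycerol. Every mouse carried a CT26 tumour and had 2 injections, spaced by 3 days, before its tumour was frozen, and each tumour gave 1 RNA sequencing library. The age and sex of the mice are not stated in the labels.

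The proteasome is the barrel-shaped protease that cuts proteins marked with ubiquitin. Its core has outer rings of alpha subunits and inner rings of beta subunits, and only some of the beta subunits cut. The 19S cap unfolds substrates with a ring of ATPases and reads ubiquitin with its other subunits. In cells exposed to interferon-gamma, and in many white blood cells without it, Psmb8, Psmb9 and Psmb10 are built into new cores in place of Psmb5, Psmb6 and Psmb7. This immunoproteasome, together with the PA28 activator made of Psme1 and Psme2, changes which peptides are cut for display on MHC class I.

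Promoter sequences are shown because the immune and constitutive genes are known to answer to different transcription factors. Whether the motifs bear on the levels in these tumours was not tested. RefSeq promoters on GRCm38.p6, 300 bases from 250 before the start of transcription to 50 from it on, were matched by symbol for 36 of 43 members. The rest, Psma8, Psmb1, Psmb2, Psmb7, Psmc3, Psmd3 and Psmd7, are named only. The reference is of another strain than the tumours. Capitals mark the letters found by a motif search on both strands, in which a base may count for more than 1 motif. They are TTCNNNGAA, the core of a STAT site, in Psmb8, the core of an interferon response element (a pair of GAAA runs with 2 bases between them), read on the opposite strand in Psme1, TGACNNNGC, the core of an antioxidant response element of the kind bound by Nfe2l1, in Psmb5, and CCGGAA, the core of an ETS site, in Psme3.
Psmb8, chr17:34197945-34198244 (plus strand): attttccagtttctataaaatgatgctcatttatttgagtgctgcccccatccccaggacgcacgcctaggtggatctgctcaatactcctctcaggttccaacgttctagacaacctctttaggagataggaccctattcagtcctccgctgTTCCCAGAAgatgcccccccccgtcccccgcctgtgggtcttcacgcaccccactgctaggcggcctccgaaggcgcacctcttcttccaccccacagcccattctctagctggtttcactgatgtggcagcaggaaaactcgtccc
Psme1, chr14:55578244-55578543 (plus strand): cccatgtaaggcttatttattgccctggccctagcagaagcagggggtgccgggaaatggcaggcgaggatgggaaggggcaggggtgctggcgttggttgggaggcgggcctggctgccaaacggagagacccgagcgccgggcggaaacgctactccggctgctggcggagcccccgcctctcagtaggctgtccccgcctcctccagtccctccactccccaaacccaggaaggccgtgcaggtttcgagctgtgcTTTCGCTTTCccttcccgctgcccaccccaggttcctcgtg
Psmb5, chr14:54617946-54618245 (minus strand): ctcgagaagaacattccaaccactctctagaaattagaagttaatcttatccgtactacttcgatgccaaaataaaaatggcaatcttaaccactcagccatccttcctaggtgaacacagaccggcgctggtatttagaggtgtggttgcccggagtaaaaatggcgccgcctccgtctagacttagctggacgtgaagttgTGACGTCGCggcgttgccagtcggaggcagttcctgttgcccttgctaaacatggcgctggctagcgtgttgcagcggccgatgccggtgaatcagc
Psme3, chr11:101315963-101316262 (plus strand): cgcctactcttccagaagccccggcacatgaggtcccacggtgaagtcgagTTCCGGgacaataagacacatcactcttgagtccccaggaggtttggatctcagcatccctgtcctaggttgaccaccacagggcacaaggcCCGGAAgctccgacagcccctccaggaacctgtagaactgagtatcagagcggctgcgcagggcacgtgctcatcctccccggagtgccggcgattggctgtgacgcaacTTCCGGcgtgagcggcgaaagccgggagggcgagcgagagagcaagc

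The ETS letters CCGGAA were present in 17 of the 31 matched constitutive members (54.8%) and in 0 of the 5 immune members, while 14.9% of all 32851 promoters in the table held them. Psme3 held them 3 times. A member counted when any promoter under its symbol held the letters, and the share over all promoters counted each promoter by itself. TGACNNNGC was found in 6 constitutive members (19.4%), namely Psmb5, Psmb6, Psmc6, Psmd12, Psmd9 and Psme4, in 0 immune members and in 12.4% of all promoters. The interferon response core was found in Psme1 alone among the immune members, in 3 constitutive members (Psmb3, Psmd4 and Psmd9) and in 3.44% of all promoters. TTCNNNGAA was found in Psmb8 and in the cap subunit Psmd2, and in 8.3% of all promoters. These matches describe letters in a short window and no binding was measured. In the RefSeq gene order, Psmb9 and Psmb8 lie on either side of Tap1, the peptide transporter gene, and Tap2 follows Psmb8. The promoters shown for Psmb8 and Psme1 each hold 1 match.

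Values below are normalized counts, the reads of a gene divided by a factor for the depth of its library. Recovered reads per library ran from 16455052 to 18051480. Differences are PEG-glutaminase minus vehicle on the log2 scale from limma, fitted to the 13557 genes whose mean over the 6 libraries reached 10, with p-values adjusted over all of them. Of the members 41 passed that minimum. The other two were Psma8, an alpha subunit of the testis, at 7.15 ± 1.42 in vehicle and 5.09 ± 0.123 in PEG-glutaminase tumours (SD, n = 3 per group, as for every mean below), and Psmb11, the catalytic subunit of the thymus, with 1 read in vehicle 2, 1 in PEG-glutaminase 2 and a listed 0 in the other libraries. Vehicle 1 stood apart in skin markers, whose summed level was 8129 normalized counts there and 67.3 to 208 in the other libraries, and PEG-glutaminase 2 was lowest in T and NK cell markers. PEG-glutaminase 2 was also highest in the summed markers of fibroblasts (24850.0 against 15320 to 19246 in the other libraries), endothelium (3643 against 2688 to 3006) and skeletal muscle (1372 against 43.2 to 959). Markers of epithelium summed to 204 to 398 normalized counts over 6 genes, with Krt19 and Cldn4 under the minimum.

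The immune subunits were the tested members with the largest log2 differences between the groups. All 5 were lower in each PEG-glutaminase tumour than in any vehicle tumour, and the change of the mean ran from -42.9% (Psmb9) to -30.4% (Psme2). The median log2 difference was -0.76 over the 5 immune genes, -0.0671 over the 36 tested constitutive members and near 0 over all tested genes. By limma 0 of 41 members passed an adjusted p of 0.05 in either direction, against a background of 0.0295% of genes called lower and 0.00738% called higher. The limma adjusted p ran from 0.15 to 0.287 in the immune genes. It was 0.167 for Psma6 and 0.192 for Psme3, both constitutive. At an unadjusted limma p under 0.05 there were 6 members lower, of which 3 were immune, and 1 higher (background 9.51% lower and 8.92% higher). edgeR called 0 members, again with 6 lower and 1 higher unadjusted. DESeq2 called Psmb10, Psme1 and Psme2 lower and no member higher, where its background was 2.17% lower and 1.73% higher. The groups did not overlap in 10 tested members that were lower and 2 that were higher, and over all tested genes in 12.7% and 13.1%. Of the 10 lower members 5 were immune, which left 5 lower and 2 higher among the 36 tested constitutive members. In bulk tissue, fewer cells of a type and less RNA per cell cannot be told apart.

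Psmb8, which cuts after bulky hydrophobic residues in place of Psmb5, stood at 3328, 3887 and 5069 normalized counts in vehicle 1, 2 and 3 and at 2683, 1385 and 3016 in PEG-glutaminase 1, 2 and 3. The groups did not overlap, and the lowest value was in PEG-glutaminase 2. Its mean went from 4094 ± 889 to 2361 ± 862, a log2 difference of -0.85 ± 0.35 (SE; limma adjusted p = 0.287). Psmb9, which takes the place of Psmb6, stood at 2721, 3067 and 3957 in vehicle tumours and at 2269, 1066 and 2233 in PEG-glutaminase tumours. PEG-glutaminase 1 and 3 were nearly level for Psmb9, and PEG-glutaminase 2 had less than either. The log2 difference of Psmb9 was -0.87 ± 0.35 (limma adjusted p = 0.283), the lowest of all members. Psmb10, which takes the place of Psmb7, stood at 3235, 3290 and 4073 in vehicle tumours and at 2373, 1414 and 2655 in PEG-glutaminase tumours. Its log2 difference was -0.76 ± 0.25 (limma adjusted p = 0.215), and DESeq2 gave an adjusted p of 0.00976.

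Psme1, the alpha chain of PA28, stood at 4030, 4444 and 4824 normalized counts in vehicle tumours and at 3303, 2340 and 3530 in PEG-glutaminase tumours. Psme2, its beta chain, stood at 2605, 2985 and 3483 in vehicle tumours and at 2349, 1705 and 2259 in PEG-glutaminase tumours. Both chains followed the same pattern, with vehicle 3 highest and PEG-glutaminase 2 lowest. The log2 difference was -0.55 ± 0.15 for Psme1 (limma adjusted p = 0.151, DESeq2 adjusted p = 0.0135) and -0.53 ± 0.15 for Psme2 (limma adjusted p = 0.15, DESeq2 adjusted p = 0.0157). Psme2b, a near copy of Psme2 that is no member, stood at 1076 ± 151 in vehicle and 746 ± 136 in PEG-glutaminase tumours. No source used here says how reads common to Psme2 and Psme2b were counted, so the level of Psme2 is uncertain.

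**Figure D1:**
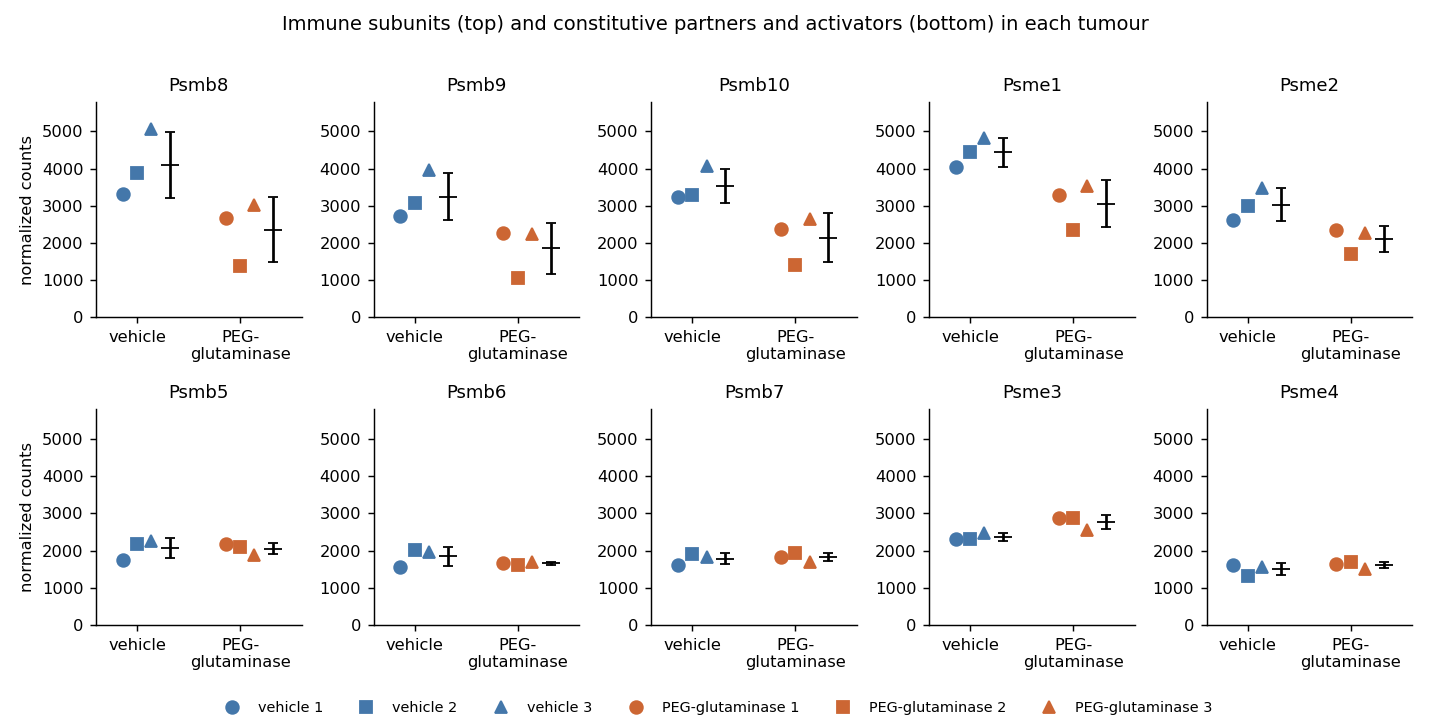
Normalized counts of the 5 immune subunits (top row) and of Psmb5, Psmb6, Psmb7, Psme3 and Psme4 (bottom row) in each tumour, with bars for the mean and SD of 3 tumours per group. The immune subunits did not overlap between groups and were lowest in PEG-glutaminase 2, while Psmb5, Psmb6, Psmb7 and Psme4 overlapped.

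All 5 immune genes were highest in vehicle 3 and lowest in PEG-glutaminase 2. Their highest library was 2.04 (Psme2) to 3.71 (Psmb9) times their lowest, whereas this ratio was 1.12 to 1.42 among the 36 constitutive members. The coefficient of variation within the PEG-glutaminase group ran from 16.6% to 36.9% for the immune genes and from 1.03% to 9.99% for the constitutive ones. Leaving out PEG-glutaminase 2 put Psmb8 at -0.50, Psmb9 at -0.51, Psmb10 at -0.48, Psme1 at -0.37 and Psme2 at -0.38, with limma adjusted p from 0.137 to 0.257. The immune median was then -0.48. Without both vehicle 1 and PEG-glutaminase 2, an alternative chosen after seeing the data, the 5 stood between -0.44 (Psme1) and -0.64 (Psmb8).

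**Figure D2:**
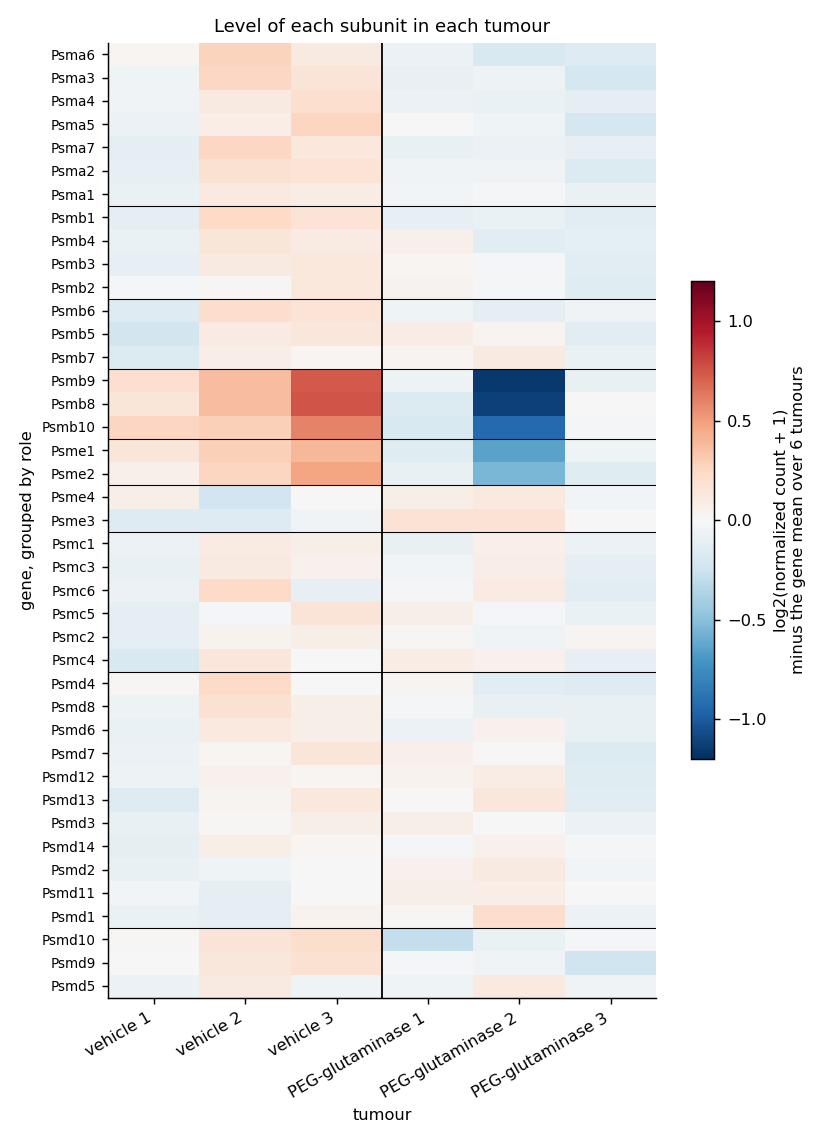
Heat map of log2(normalized count + 1) of each of the 41 tested members in each tumour, relative to the gene's mean over the 6 tumours, with rows grouped by role and a line between the groups of mice. The immune rows run from red in vehicle 3 to blue in PEG-glutaminase 2, and the other rows stay near white.

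The place of each immune catalytic subunit is filled by its constitutive partner when it is absent, so the 3 pairs were compared within each library. Psmb5 stood at 2067 ± 273 normalized counts in vehicle and 2049 ± 153 in PEG-glutaminase tumours, a log2 difference of -0.00662 ± 0.11. Psmb6 stood at -0.15 ± 0.10 and Psmb7 at 0.0369 ± 0.0893, and in all 3 partners the groups overlapped. Leaving out 1 library changed the sign of Psmb5 (-0.12 to 0.0612) and of Psmb7 (-0.0337 to 0.0871). None of the 3 passed limma, edgeR or DESeq2.

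The log2 ratio of Psmb8 to Psmb5 was 0.92, 0.83 and 1.17 in vehicle 1, 2 and 3 and 0.30, -0.59 and 0.68 in PEG-glutaminase 1, 2 and 3. It did not overlap between groups, and the difference was -0.84 ± 0.39 (SE). The log2 ratio of Psmb9 to Psmb6 was 0.80, 0.61 and 1.02 in vehicle tumours and was 0.44, -0.59 and 0.40 in PEG-glutaminase tumours, a difference of -0.72 ± 0.36. That of Psmb10 to Psmb7 was 1.01, 0.79 and 1.16 in vehicle tumours and was 0.37, -0.45 and 0.64 in PEG-glutaminase tumours, a difference of -0.80 ± 0.35. In each of the 3 pairs the two-sided exact permutation p was 0.1, also after Benjamini-Hochberg adjustment over the 3 pairs, and 0.1 is the smallest p that 3 against 3 can give. Without PEG-glutaminase 2 the differences were -0.48 for Psmb8 over Psmb5, -0.39 for Psmb9 over Psmb6 and -0.48 for Psmb10 over Psmb7, with exact permutation p of 0.1, 0.2 and 0.2.

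To set both genes of a pair on one scale, counts were divided by the length of the longest coding transcript of each gene. On this scale Psmb8 made up 52.0% ± 3.02 (SD, n = 3) of the pair with Psmb5 in the vehicle group and 38.1% ± 10.3 in the PEG-glutaminase group. Psmb9 made up 50.8% ± 3.56 and 38.8% ± 9.19 of its pair with Psmb6, and Psmb10 made up 63.6% ± 2.95 and 50.2% ± 9.75 of its pair with Psmb7. In PEG-glutaminase 2 the shares were 26.8%, 28.2% and 39.3% in the same order. In PEG-glutaminase 1 they were 40.5%, 44.4% and 53.3%, and in PEG-glutaminase 3 they were 47.0%, 43.8% and 58.0%. These are shares of transcripts under the length chosen for each gene, which need not be that of the form made in the tumours. The subunits built into proteasomes were not measured.

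**Figure D3:**
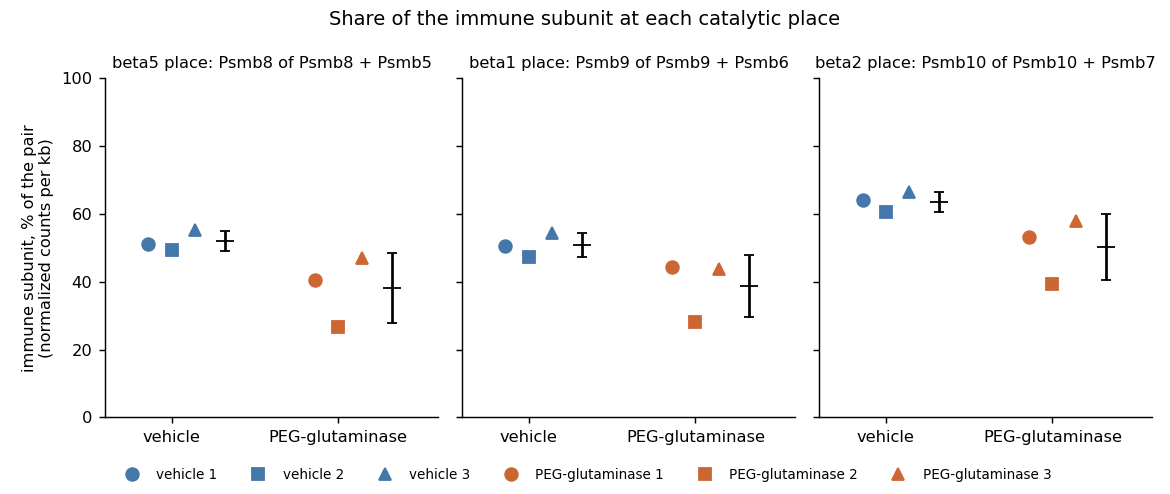
Share of the immune subunit in each pair of catalytic subunits, as a percentage of the pair's normalized counts per kilobase, for each tumour, with the mean and SD of 3 tumours per group. Vehicle tumours lie between 47.3% and 66.3%, and PEG-glutaminase 2 is lowest in all 3 pairs.

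Ordered by normalized counts per kilobase, Psme1 was the highest of the 41 tested members in vehicle tumours at 3986 ± 357, next to Psmb4 at 3899 ± 318 and Psma7 at 3872 ± 487, and these 3 did not differ beyond their SDs. Psme2, Psmb10, Psmb8 and Psmb9 ranked 4, 5, 7 and 9 in vehicle tumours. All ranks given here depend on the transcript length chosen for each gene. In PEG-glutaminase tumours Psmb4 ranked 1, Psme1 ranked 3 at 2750 ± 568 and Psme2 ranked 7, while Psmb10, Psmb8 and Psmb9 ranked 19, 23 and 24. At the other end were Psmd10, Psmd9 and Psme4, whose vehicle means were 449.7 ± 31.8, 268 ± 17.7 and 232 ± 24.0 per kilobase. Psmd9 and Psmd10 assist assembly of the cap and are not parts of the finished proteasome. Psme4, also known as PA200, is an activator tied to chromatin and to acetylated histones.

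The alpha ring forms the gate of the core. All 7 tested alpha genes were lower in PEG-glutaminase tumours, with differences from -0.0871 (Psma1) to -0.27 (Psma6) and a median of -0.18. By limma, edgeR or DESeq2 0 passed (2 at an unadjusted limma p under 0.05). Over all tested genes 50.0% were lower, 9.51% were lower at that unadjusted p and 12.7% were lower without overlap. Psma6 stood at 2396, 2838 and 2549 normalized counts in vehicle 1, 2 and 3 and at 2252, 2079 and 2123 in PEG-glutaminase 1, 2 and 3. The groups of Psma6 did not overlap, and its difference was -0.27 ± 0.0849 (limma adjusted p = 0.167, DESeq2 adjusted p = 0.0991). Psma3 stood at -0.24 ± 0.0926 (limma adjusted p = 0.226) and Psma4 at -0.18 ± 0.0830 (limma adjusted p = 0.286), both also without overlap. The mean log2 level of the alpha genes, relative to their mean over all libraries, was -0.0609 in vehicle 1, close to -0.0566 and -0.0715 in PEG-glutaminase 1 and 2, while vehicle 2 and 3 stood at 0.18 and 0.16. Thus vehicle 1 lay with the PEG-glutaminase tumours for these genes.

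The 4 beta genes without a cutting site in the core, Psmb1, Psmb2, Psmb3 and Psmb4, stood between -0.20 and -0.0786 with a median of -0.10, and each overlapped between groups. The cap genes lay nearer to 0. The 6 ATPase genes Psmc1 to Psmc6 had differences from -0.0674 to 0.0272, and the 11 tested non-ATPase cap genes had differences from -0.17 (Psmd4) to 0.11 (Psmd1) with a median of -0.00436. Psmd4 is a ubiquitin receptor of the cap, and Psmd14, which stood at 0.0116 ± 0.0784, is the enzyme that removes ubiquitin chains from substrates. None of these 21 genes passed limma, edgeR or DESeq2, and 0 had an unadjusted p under 0.05 by any of these tools. Psmd11, a scaffold subunit, was the 1 cap gene without overlap, at 1622, 1534 and 1653 normalized counts in vehicle tumours and at 1750.4, 1759 and 1662 in PEG-glutaminase tumours. Its difference was 0.11 ± 0.0739 (limma adjusted p = 0.456). Psmd1 and Psmd2, the largest cap subunits, stood at 0.11 ± 0.0916 and 0.0829 ± 0.0790, and Psmc4 at 0.0272 ± 0.0971. Psmc4 changed sign when single libraries were left out (-0.0562 to 0.10). Whether the alpha ring and the cap differ from each other was not tested.

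Of the cap assembly chaperones, Psmd10 stood at 593, 654 and 682 normalized counts in vehicle tumours and at 482, 555 and 583 in PEG-glutaminase tumours, without overlap. Its difference was -0.25 ± 0.10 (limma adjusted p = 0.238). Psmd9 stood at -0.20 ± 0.0984 and Psmd5 at 0.0154 ± 0.0849. Of the 3, 0 passed limma, edgeR or DESeq2 (1 lower unadjusted by limma, background 9.51%).

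Psme3, the nuclear activator PA28 gamma, was the highest of all members in its difference and stood opposite to Psme1 and Psme2. It had 2298, 2299 and 2478 normalized counts in vehicle 1, 2 and 3 and 2878, 2881 and 2555 in PEG-glutaminase 1, 2 and 3, with no overlap. The mean was 17.5% higher in PEG-glutaminase tumours, with a log2 difference of 0.23 ± 0.0810 (limma adjusted p = 0.192, DESeq2 adjusted p = 0.158). Leaving out 1 library put it between 0.20 and 0.29. Psme4 stood at 0.10 ± 0.0938 and overlapped. In the authors' deposited table Psme3 was the 1 member of 41 with an adjusted p under 0.05, at a log2 fold change of 0.23 and an adjusted p of 0.0308, where 1.98% of all genes in the authors' deposited table were called higher and 1.96% lower. In the authors' deposited table the log2 fold changes of the immune genes ran from -0.36 (Psmb9, adjusted p of 0.72) to -0.27 (Psme2, adjusted p of 0.435), with Psmb10 at -0.35 (adjusted p of 0.606). That comparison does not rest on the 6 library columns as listed, because its mean is above 0 for 567 gene models at 0 in all 6. Whether other libraries or other counts entered it is not known here, so its values and those above do not share the same input.

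**Figure D4:**
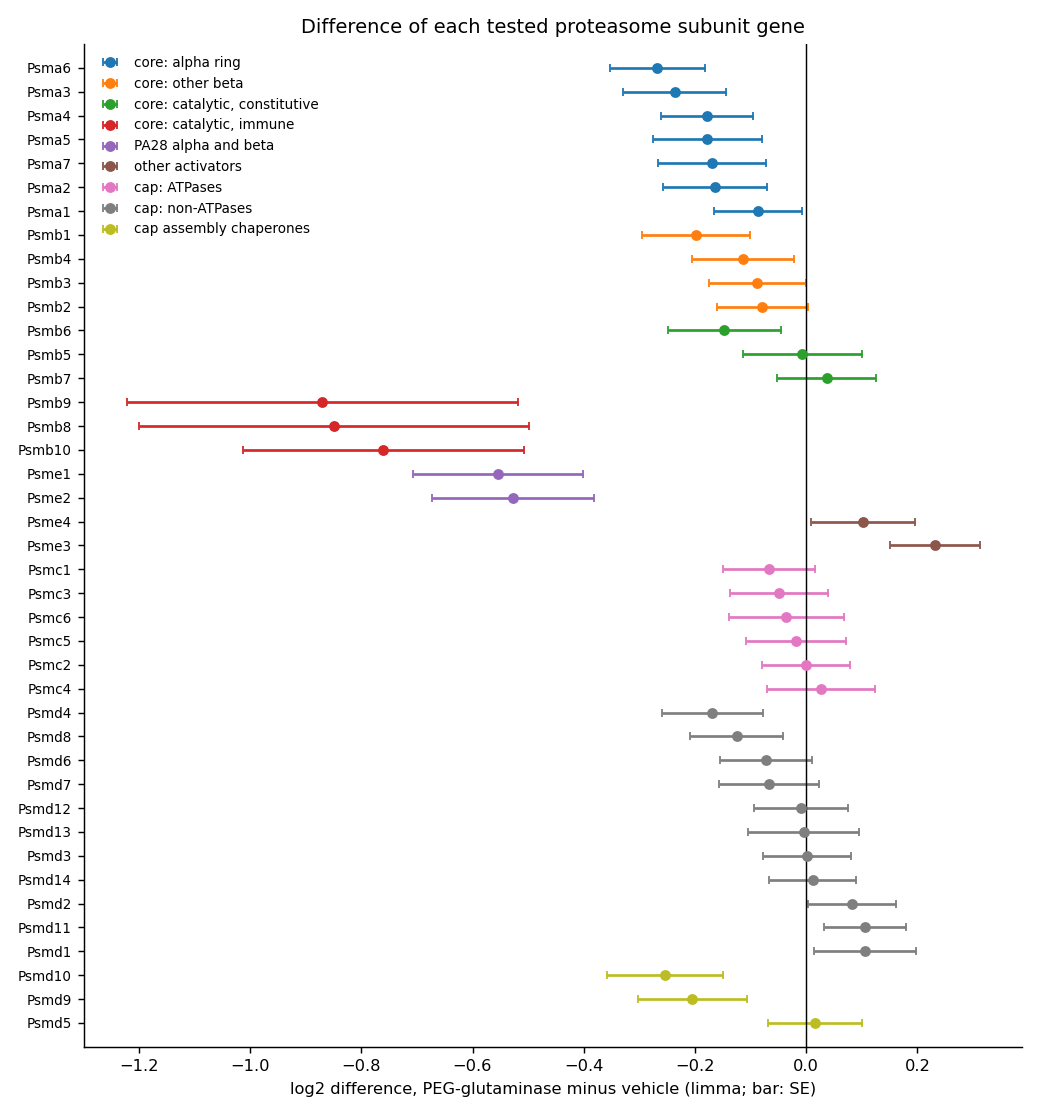
Log2 difference (PEG-glutaminase minus vehicle, limma) of each of the 41 tested members with its SE, coloured by role. The 5 immune genes lie from -0.87 to -0.53, apart from the other members, which lie from -0.27 (Psma6) to 0.23 (Psme3).

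Genes that assemble and regulate the proteasome were read from a list of 22, of which 21 were tested. By limma, edgeR and DESeq2 0 passed, and the list's median was -0.0531. At an unadjusted limma p under 0.05 there were 2 higher and 4 lower (background 8.92% higher and 9.51% lower). Pomp, the maturation protein needed to build new cores and most of all immune cores, stood at 3379 ± 256 in vehicle and 3024 ± 132 in PEG-glutaminase tumours, a difference of -0.16 ± 0.0830 (limma adjusted p = 0.329). Nfe2l1, the transcription factor that raises constitutive subunit genes when proteasomes are short, stood at -0.0645 ± 0.0979, and at 0.0293 without PEG-glutaminase 2. The genes of smallest p in this list were Psmg4, Zfand2a, Sem1 and Ube3c. Psmg4, a core assembly chaperone, stood at -0.31 ± 0.11. Zfand2a, a protein induced by heat shock that binds the cap, stood at -0.36 ± 0.13. Sem1, a small cap subunit, stood at -0.27 ± 0.10, and Ube3c, a ubiquitin ligase found on proteasomes, at 0.18 ± 0.0756. Of the 5 ubiquitin genes 0 passed by limma, edgeR or DESeq2 (2 lower unadjusted by limma, background 9.51%). Ubb, a polyubiquitin gene, stood at -0.29 ± 0.12, and Rps27a, which encodes ubiquitin fused to a ribosomal protein, at -0.11 ± 0.0975.

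Genes of the interferon response and of the MHC class I pathway were read from lists. The regulators and class I lists hold genes that act with or upstream of the immune subunits. The interferon targets do neither and are given as further genes that answer to interferons. Irf1, the factor that switches on Psmb8, Psmb9 and Psmb10 after interferon-gamma, stood at 2960.5, 2829 and 3752 normalized counts in vehicle tumours and at 2234, 1536 and 2188 in PEG-glutaminase tumours. It was highest in vehicle 3 and lowest in PEG-glutaminase 2, and the groups did not overlap. Ifng, the gene of interferon-gamma itself, was near the low end of the counts at 36.7, 31.4 and 51.0 in vehicle tumours and at 20.7, 11.9 and 21.6 in PEG-glutaminase tumours. Nlrc5, described below, was counted both among the regulators of the interferon-gamma response and in the class I list. Of 14 genes listed as such regulators 13 were lower and 8 did not overlap (background 12.7%). limma and edgeR called 0 of them (8 lower unadjusted by each), and DESeq2 called 6 lower, Irf1 (adjusted p = 0.00211), Irf9 and Ciita among them. Of 24 tested interferon targets all were lower and 21 did not overlap, and limma and edgeR called 0 (16 lower unadjusted by each). DESeq2 called 8 of the targets, among them Irgm1 at -0.81 ± 0.21, Cxcl10 at -0.84 ± 0.23 and Cxcl11 at -0.87 ± 0.24, while Mx1, at -0.62 ± 0.19, was not called. Over all tested genes 50.0% were lower, 12.7% were lower without overlap and 9.51% were lower at an unadjusted limma p under 0.05. DESeq2 called 2.17% of all genes lower.

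Tap1, which lies between Psmb9 and Psmb8, stood at 5464, 5542 and 7022 normalized counts in vehicle tumours and at 4399, 2657 and 4576 in PEG-glutaminase tumours. Its difference of -0.66 ± 0.23 (limma adjusted p = 0.223, DESeq2 adjusted p = 0.0179) lay between those of Psme1 and Psmb10. Of 13 tested class I pathway genes 10 were lower, 5 of them without overlap, and 3 were higher. The 3 were Calr, Canx and Pdia3, general folding proteins of the endoplasmic reticulum named after their values were seen, at 0.0952, 0.11 and 0.0643. In this list limma and edgeR called 0 (4 lower unadjusted by each), and DESeq2 called Tap1 and Tapbpl, a peptide editor, lower. The background was 50.0% lower, 12.7% lower without overlap, 9.51% lower at an unadjusted limma p under 0.05 and 2.17% called lower by DESeq2. B2m, the light chain of class I, stood at -0.42 ± 0.15, Tapbp, the tapasin that bridges Tap1 to class I, at -0.81 ± 0.30, Tapbpl at -0.55 ± 0.18 and Nlrc5, an activator of class I genes, at -0.37 ± 0.24. Without PEG-glutaminase 2 the differences were -0.41 for Tap1, -0.25 for B2m, -0.48 for Tapbp, -0.15 for Nlrc5 and, among the regulators, -0.51 for Irf1. H2-D1 was under the minimum at 4.23 ± 0.523 in vehicle and 8.54 ± 5.34 in PEG-glutaminase tumours. No source used here says how reads common to similar class I genes were counted, so this level is uncertain.

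White blood cells carry immune subunits without interferon, so their markers are given beside these results. All 22 T and NK cell markers in the table were lower. Their summed level was 6051 to 6837 normalized counts in vehicle tumours and 2755, 1001 and 5255 in PEG-glutaminase 1, 2 and 3. All 12 general leukocyte markers were lower, by a median of -0.20, with sums of 18204 to 22309 in vehicle and 13878 to 18297 in PEG-glutaminase tumours, which overlapped. Of 15 dendritic cell markers 12 were lower, with sums of 34791 to 55268 and 15636 to 24465. That list holds the MHC class II genes H2-Aa, H2-Ab1 and H2-Eb1 and their partner Cd74, which other cells can also carry. Its sums are therefore not a measure of dendritic cells alone. Of 12 macrophage markers 6 were lower, with sums of 43586 to 59468 and 50759.7 to 56984. No marker in these 4 lists was at 0 in any library. Of 6 B and plasma cell markers 4 were under the minimum of 10, and the list summed to 19.6 to 68.7 over the 6 libraries. The part of these cells, and of the fibroblast, endothelial and muscle markers that were highest in PEG-glutaminase 2, in the lower immune subunits was not tested. limma and edgeR called 0 markers in these 5 lists, where at an unadjusted limma p under 0.05 there were 2 T and NK, 1 leukocyte, 7 dendritic and 1 macrophage markers lower and 2 macrophage markers higher. DESeq2 called 1 T and NK, 5 dendritic and 1 macrophage marker lower and 1 macrophage marker higher. Over all tested genes 50.0% were lower, and at an unadjusted limma p under 0.05 the shares were 9.51% lower and 8.92% higher. The DESeq2 background was 2.17% lower and 1.73% higher.

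**Figure D5:**
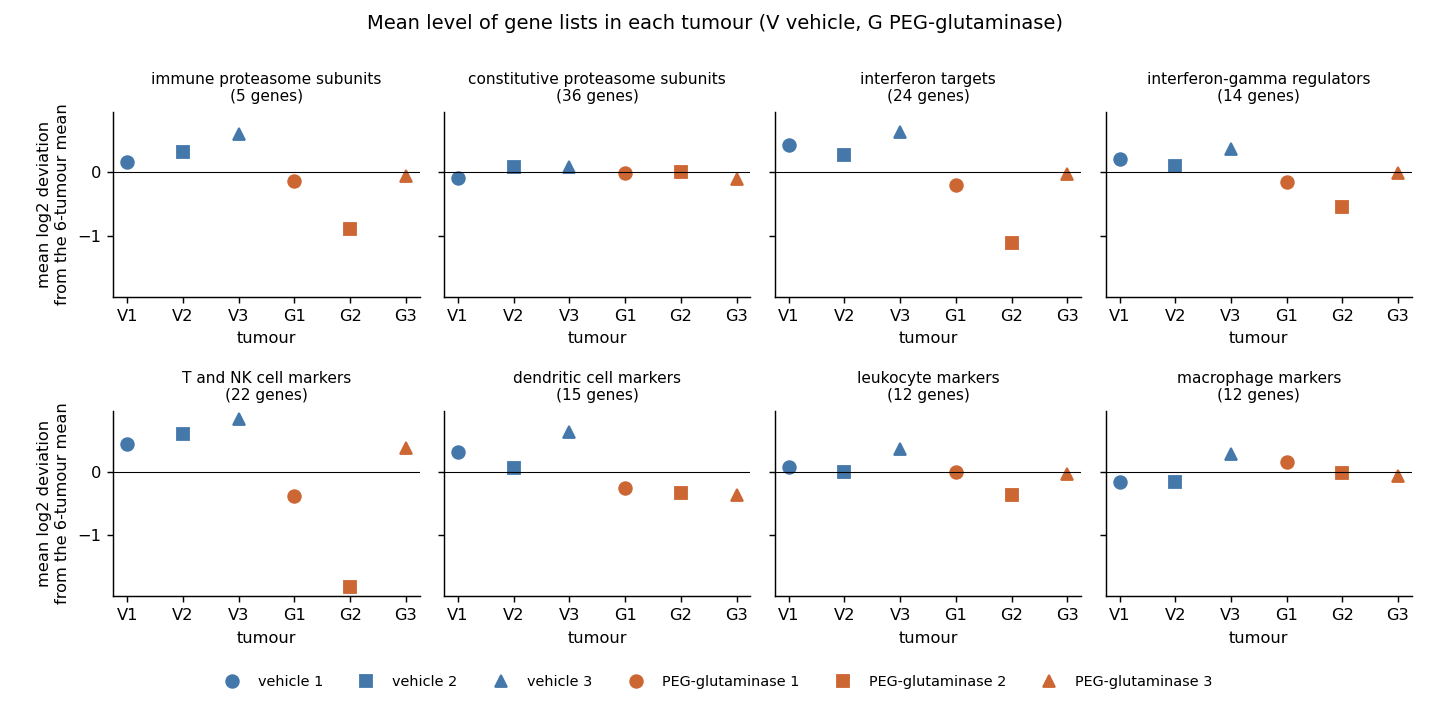
Mean log2 level of each gene list in each tumour, relative to the gene's mean over the 6 tumours, for proteasome subunits, interferon lists and markers of white blood cells. Immune subunits, interferon targets and T and NK cell markers are highest in vehicle 3 and lowest in PEG-glutaminase 2, and constitutive subunits stay between -0.0979 and 0.0890.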

How the data were processed

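RNA was measured in 6 tumours, 3 per group by the sample titles, with polyadenylated RNA captured before library preparation per the labels' protocols. The deposited table gives an expression signal, the read count of each gene model divided by a size factor. FastQC, STAR, featureCounts, DESeq2 and DESeq are named in the submitters' processing notes, without versions. The sources used here give no genome build, strand setting or rule for multimapped reads. The identifiers of the deposited gene models name BALB/cJ. Beside these, the authors deposited log2 fold changes with SE, a Wald score and p-values of a comparison, per the file headers. Of 40396 rows, 93 repeat a model and were used once. No symbol was given for 2902 models, which took 0.13% to 0.214% of the reads.

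Within 0.01, 100% of the values above 0 were whole multiples of 1 read, and the count tests used those reads, with 271 genes called lower and 216 higher by DESeq2 and 4 lower and 1 higher by edgeR. In PEG-glutaminase 2 the step lies near to 1, so there the recovery rests on the values alone. The main test was limma 3.58.1 (R 4.3.3) on log2(value + 1), with trended, robust empirical Bayes, two-sided, and Benjamini-Hochberg adjustment over 13557 genes. On this scale changes of low genes are understated. edgeR 4.0.16 with TMM and DESeq2 1.42.0 ran on the recovered reads. The script was tested on simulated data. The p-values measure the spread between mice, 1 tumour each. Ratios of pairs were tested by exact permutation. Lengths are of the longest coding transcript in GENCODE M21 (GRCm38), another assembly than the gene models. Members and lists were chosen with earlier results of these data known. Members described one by one are the immune subunits, their partners, the other activators, and the 4 with the largest limma t in each direction among the rest or called by a tool. Psma1, Psmd4, Psmd5, Psmd9 and Psmd14 were named after their values were seen. From each pathway list those described are the 4 of smallest p and 8 fixed genes, of which 3 are not reported here. Alternatives were 2 pseudocounts, no filter, a mean of at least 50, a replicate block, TMM within limma, both count tools and each library left out.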

Additional observations from a re-analysis of the deposited data

How the results depend on the processing

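DESeq2 called 3 members lower where limma called 0, and every other alternative called 0 in either direction; the cause was not tested. The constitutive median, -0.0671 with all libraries, stood at -0.15 without vehicle 1 and PEG-glutaminase 2 together (chosen after seeing the data). In that setting Psmb7 stood at -0.0765, Psmc4 at -0.0746 and Nfe2l1 at 0.0426, each of the opposite sign to its value with all libraries. Leaving out 1 library put the immune median between -0.94 and -0.48 and the constitutive median between -0.12 and -0.0227. It put the ratios between -1.12 and -0.48 (Psmb8 to Psmb5), -0.90 and -0.39 (Psmb9 to Psmb6) and -1.03 and -0.48 (Psmb10 to Psmb7), each nearest to 0 without PEG-glutaminase 2. It put Psmb5 between -0.12 and 0.0612, Psmb7 between -0.0337 and 0.0871, Psmc4 between -0.0562 and 0.10 and Nfe2l1 between -0.14 and 0.0293. DESeq2 also moved Tap1, Tapbpl, Irf1, Irf9, Ciita, Irgm1, Cxcl10 and Cxcl11 past the threshold. Same-numbered libraries of the 2 groups did not deviate together (correlations of -0.13, -0.21 and -0.22), and none of the 3 vehicle libraries correlated best with its own number, so the numbers were not taken as pairs. With the replicate block limma called 0 members, and permuting within numbers gave an exact p of 0.25 for each ratio, the smallest possible there. With 3 tumours per group, the SE of single constitutive subunits ran from 0.0739 to 0.11, against a constitutive median of -0.0671.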
